A study of Mus musculus with 24 samples.

Results

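The genes described here are Wtap, Zfp654, Gm14236, Gata3, Enam, Ermap and Nos1, 7 of the 53900 rows of a count table from mouse embryonic stem cells. They were chosen by how far and how surely their counts fell below input when tagged TET2 was crosslinked to RNA and immunoprecipitated (CLIP). All 7 were found by Ensembl gene ID and all 7 passed the count filter, which kept 10334 features. The choice used the CLIP and input libraries of both clones, so every fall of these 7 genes against input below is a description. Of their CLIP values only the difference of the falls between the clones was tested, on these same libraries.

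The CLIP part held 8 of the 24 samples of the series. They came from 2 clones of the E14 line that carry His- and HA-tagged Tet2, each group being 1 clone: TET2 CLIP of clone 75, TET2 CLIP of clone 65, input of clone 75 and input of clone 65, with 2 replicates each. All 8 had been fed 500 µM 4-thiouridine, a photoreactive uridine analogue, over 4 hours before a UVB dose of 400 mJ/cm2. A second part held hm5C RIP, RNA recovered with an antibody against 5-hydroxymethylcytosine (hm5C), and RIP input, 2 replicates each, from untreated B6;129 stem cells. Cells of both parts grew with leukemia inhibitory factor and with CHIR99021 at 3 µM and PD0325901 at 1 µM, inhibitors of GSK3 and MEK. No untagged control was analysed here.

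TET2 belongs to the enzymes that turn 5-methylcytosine into hm5C by oxidation, a reaction known for DNA and also for RNA. In CLIP, RNA in contact with a protein is bound to it by light and recovered with it, and the input shows the RNA present before recovery. A gene below input is therefore under-represented in the recovered RNA relative to other genes, since shares of a library sum to a fixed whole. The 7 genes have unlike roles. Wtap encodes a subunit of the complex that writes N6-methyladenosine (m6A) on mRNA. Zfp654 encodes a zinc finger protein, and Gm14236 is a predicted gene with no role in the annotation used here. Gata3 encodes a zinc finger transcription factor of T cell and trophoblast development, Enam the enamel matrix protein enamelin, Ermap a butyrophilin-like protein of red cell membranes, and Nos1 the neuronal nitric oxide synthase.

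Libraries differed in depth. The 4 TET2 CLIP libraries held 221060 to 453944 counts in all and the 4 CLIP inputs 913002 to 4729463. RIP libraries held 1564014 to 2100187 counts for hm5C RIP and 4641963 to 4889943 for input. In TET2 CLIP 3 counts thus equalled 6.75 to 16.6 CPM, a floor near several of the values given here. CPM are counts scaled by library size and its TMM factor to a fixed total.

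RefSeq annotation of GRCm38.p6, the assembly of mm10, placed 6 of the 7 genes, all protein-coding, on 5 chromosomes. Wtap lies on chromosome 17 (12966799 to 12992543), Zfp654 on chromosome 16 (64780347 to 64851937), Gata3 on chromosome 2 (9857078 to 9887953), Enam on chromosome 5 (88487975 to 88506049), Ermap on chromosome 4 (119175457 to 119190013) and Nos1 on chromosome 5 (117866839 to 117958840). Gm14236 was not matched to a position. The genes are thus not neighbours, and their spans run from 14557 bases for Ermap to 92002 bases for Nos1.

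Promoter sequence was at hand for 5 of the genes, and these are shown because 4 of them, Gata3, Enam, Ermap and Nos1, moved together between the input RNA of the clones while Wtap did not. Each line gives the 250 bases before the annotated start, read 5′ to 3′ on the gene's strand (RefSeq, GRCm38.p6). Wtap has 3 starts in the table and the first listed is given. The Gata3 window lies inside the gene's annotated span and the Ermap window overlaps the end of its gene's span, each before the start that the table lists. Capitals mark, on either strand, the TATA box as TATAAA, the GC box as GGGCGG, the CCAAT box as CCAAT and the GATA site as GATAA.
Gata3 (chr2:9878601-9878850, minus strand): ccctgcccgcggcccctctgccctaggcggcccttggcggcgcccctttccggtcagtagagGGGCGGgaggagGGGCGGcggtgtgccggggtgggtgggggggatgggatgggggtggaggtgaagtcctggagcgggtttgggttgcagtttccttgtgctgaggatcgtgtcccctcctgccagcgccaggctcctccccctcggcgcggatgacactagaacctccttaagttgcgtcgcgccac
Enam (chr5:88487725-88487974, plus strand): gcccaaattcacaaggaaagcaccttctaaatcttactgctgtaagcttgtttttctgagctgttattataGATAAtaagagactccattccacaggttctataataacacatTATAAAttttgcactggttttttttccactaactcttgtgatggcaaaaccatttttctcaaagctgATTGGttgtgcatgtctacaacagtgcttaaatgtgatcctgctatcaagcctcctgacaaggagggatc
Ermap (chr4:119189996-119190245, minus strand): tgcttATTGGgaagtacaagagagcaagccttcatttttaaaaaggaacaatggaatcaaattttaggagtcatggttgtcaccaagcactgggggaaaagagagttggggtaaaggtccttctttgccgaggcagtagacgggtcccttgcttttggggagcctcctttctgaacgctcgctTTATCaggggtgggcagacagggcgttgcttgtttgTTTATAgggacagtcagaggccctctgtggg
Nos1 (chr5:117866589-117866838, plus strand): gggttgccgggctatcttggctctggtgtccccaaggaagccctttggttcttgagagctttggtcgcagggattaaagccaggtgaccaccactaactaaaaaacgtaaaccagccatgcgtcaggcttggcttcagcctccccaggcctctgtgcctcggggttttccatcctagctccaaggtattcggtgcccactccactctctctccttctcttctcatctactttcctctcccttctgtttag
Wtap (chr17:12992544-12992793, minus strand): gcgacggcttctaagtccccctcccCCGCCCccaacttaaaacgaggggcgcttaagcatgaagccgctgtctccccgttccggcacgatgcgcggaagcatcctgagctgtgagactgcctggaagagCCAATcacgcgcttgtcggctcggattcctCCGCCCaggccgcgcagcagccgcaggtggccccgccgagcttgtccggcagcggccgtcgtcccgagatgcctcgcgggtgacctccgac

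The 4 genes that moved together share no motif of these 4, and no marked motif overlaps another. TATAAA occurred once each in Enam and Ermap, a motif held by 12.4% of the 32851 windows of this length, as did GATAA (22.6% of windows). GGGCGG occurred 2 times each in Gata3 and Wtap (32.7% of windows). CCAAT occurred once each in Enam, Ermap and Wtap (33.8% of windows), and Nos1 held none of the 4 motifs. The windows of Wtap and Gata3 held 29 and 19 CpG dinucleotides, those of Nos1 and Ermap 6 and 5, and that of Enam 0, against a median of 6 over all windows. The promoters of Gata3 and Enam thus stand far apart in CpG content. A part of the promoters in the input counts was not tested.

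Wtap was recovered with TET2 at 60.8 and 99.6 CPM in clone 75 and 88.5 and 103 CPM in clone 65, against 549.8 and 493 CPM in input of clone 75 and 557 and 430.3 CPM in input of clone 65. The highest TET2 CLIP library lay far below the lowest input. Its mean was 87.9 ± 19.1 CPM in TET2 CLIP and 507 ± 58.8 CPM in input (SD, n = 4 libraries each), a fitted log2 change of -2.57 (SE 0.17). Zfp654 was at 33.8 and 51.8 CPM in TET2 CLIP of clone 75 and 38.7 and 20.6 CPM in that of clone 65, against 373 and 338 CPM in input of clone 75 and 347 and 277 CPM in input of clone 65. Its log2 change was -3.26 (SE 0.21). Both genes had TET2 CLIP values of like size in the clones.

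Gm14236 was measured at 24.8 and 23.9 CPM in TET2 CLIP of clone 75 and at 16.6 and 97.7 CPM in that of clone 65, against 592 and 534 CPM in input of clone 75 and 588 and 496 CPM in input of clone 65. The 2 TET2 CLIP libraries of clone 65 stood wide apart, with 3 and 19 counts. Its log2 change was -3.86 (SE 0.22), and -4.94 with the higher of them, replicate 2, left out.

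Gata3 was at 13.5 and 11.9 CPM in TET2 CLIP of clone 75 and 22.1 and 20.6 CPM in that of clone 65, against 429 and 455 CPM in input of clone 75 and 200.6 and 149.8 CPM in input of clone 65. All 4 TET2 CLIP values rested on 3 to 6 counts, whereas the inputs held 325 to 952. The log2 change was -4.06 (SE 0.25). Nos1 was at 33.8 and 31.9 CPM in TET2 CLIP of clone 75 and 44.2 and 77.1 CPM in that of clone 65, against 438 and 428 CPM in input of clone 75 and 194 and 162 CPM in input of clone 65. Its log2 change was -2.62 (SE 0.19), the smallest of the 7 after that of Wtap.

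Ermap was at 15.8 and 3.98 CPM in TET2 CLIP of clone 75 and 38.7 and 46.3 CPM in that of clone 65, against 389 and 455 CPM in input of clone 75 and 174 and 139 CPM in input of clone 65. Its log2 change was -3.54 (SE 0.24), and -4.41 once its TET2 CLIP library with 7 counts, replicate 1 of clone 75, was left out. Enam was at 2.25 and 3.98 CPM in TET2 CLIP of clone 75 and 11.1 and 0 CPM in that of clone 65, against 355 and 449 CPM in input of clone 75 and 137 and 139.5 CPM in input of clone 65. These were 4 counts over all 4 TET2 CLIP libraries against 2410 over the inputs. An SE of 0.35 for the fitted change understates the counting error of 4 counts. The fitted log2 change was -5.89. It was -9.10 with replicate 1 of TET2 CLIP of clone 65 left out, which held 2 of the 4 counts. The fit adds a small value to counts this low, and -9.10 depends on it most. Without that library TET2 CLIP of clone 65 held 0 counts of Enam.

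**Figure D1:**
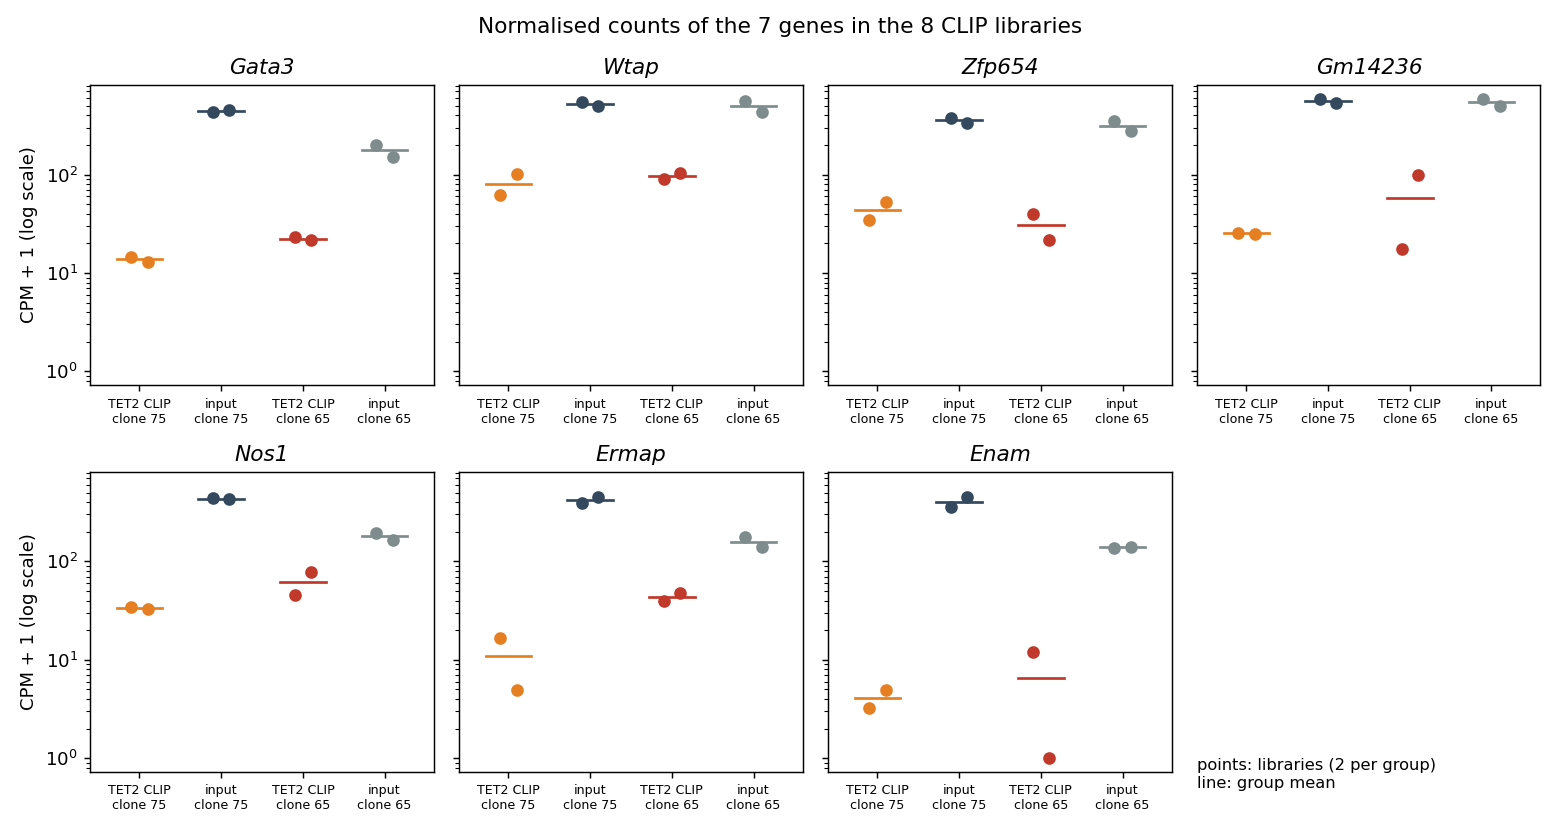
CPM + 1 on a log axis for each of the 7 genes in TET2 CLIP and input of clone 75 and clone 65. Points are libraries, 2 per group, and lines are group means. Every TET2 CLIP point lies below every input point of its gene, and the inputs of Gata3, Nos1, Ermap and Enam stand higher in clone 75 than in clone 65.

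All 7 genes were lower in TET2 CLIP and passed edgeR's threshold, as the choice required, where 14.8% of all tested features were called in either direction, 5.83% lower and 8.99% higher. By p-value they took places 1 to 3 and 7 to 10 among the 602 lower features. Places 4 to 6 went to n-R5-8s1, Gm15564 and Lars2, rows that often collect ribosomal RNA reads and are not among the 7. Such rows did not all fall. Of 6 tested, 4 were lower and 1, Mir6236, was higher at 1.38, while Gm26917 at -0.40 was not called. Just outside stood Mcm3, a subunit of the replicative helicase, at -2.11 (SE 0.15), Gm38077 at -2.93 (SE 0.22) and Gm26691 at -4.13 (SE 0.32), against -2.62 for Nos1, the last gene inside. By size of the change the 7 took places 26 (Enam) to 110 (Wtap), so the choice favoured well-counted genes over the largest changes. In input the 7 genes ranked above 97.7% (Enam) to 99.3% (Gm14236) of tested features by CPM, a rank of read counts and not of levels per length.

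Counting error in TET2 CLIP was large, and the sums of each pair of libraries show what the values rest on. If the share of each gene had been as in input, the 2 TET2 CLIP libraries of clone 75 would have held 353 counts of Wtap, and 52 were observed. For Enam 295 counts would have been held in clone 75 and 52.0 in clone 65, and 2 were observed in each. Enam was thus at 0.00679 of its input share in clone 75 (exact 95% counting interval 0.000821 to 0.0246) and at 0.0385 in clone 65 (0.00465 to 0.139). For Nos1 in clone 65, the mildest case, 65.4 counts would have been held and 23 were observed, a ratio of 0.352 (0.222 to 0.530). Intervals cover counting error only.

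**Figure D2:**
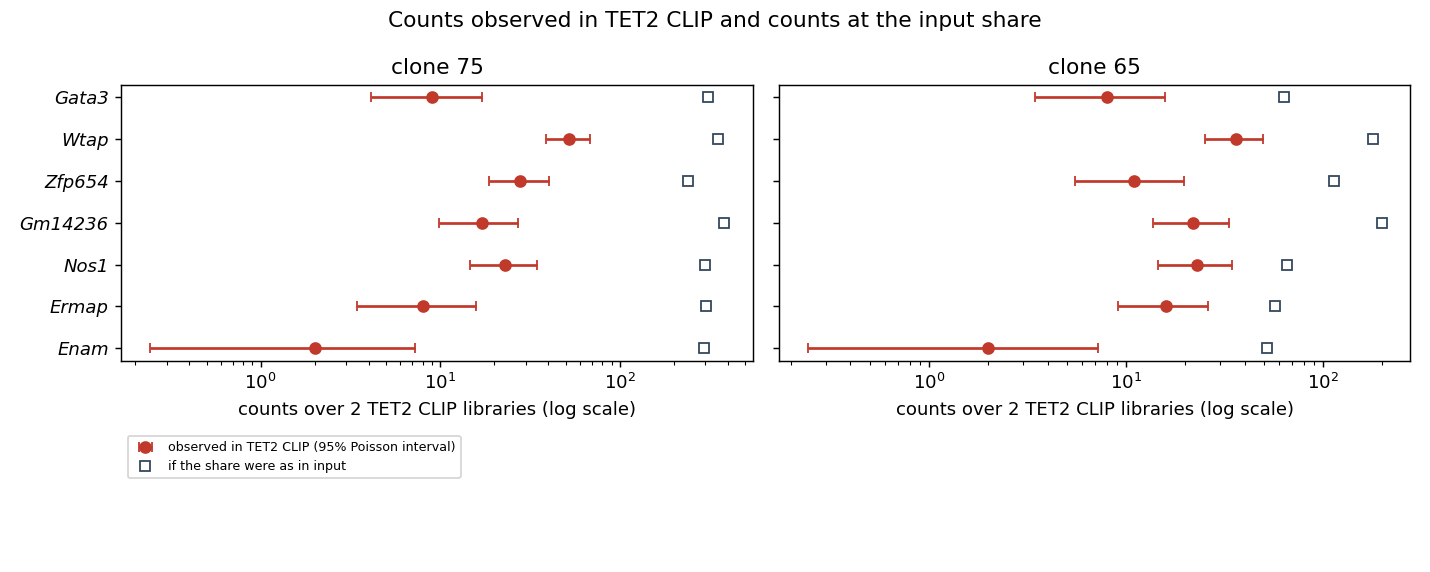
Counts summed over the 2 TET2 CLIP libraries of each clone (filled circles, bars are exact 95% Poisson intervals) and the counts that would be held at the input share (open squares), on a log axis. In both clones every interval ends below its square, and Enam rests on 2 counts per clone.

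All 7 were called lower in each clone too, which the choice on these same libraries largely fixed and which supports nothing further, where 10.2% of tested features were called in clone 75 (3.93% of those tested were lower) and 11.1% in clone 65 (2.87% lower). Whether the falls were alike in the 2 clones was tested as the change in clone 75 minus the change in clone 65. The choice did not use this difference, but it used the same libraries, whose depth differs between the clones. The test is therefore not independent of the choice. Ermap changed by -5.21 (SE 0.33) in clone 75 and by -1.87 (SE 0.34) in clone 65, a difference of -3.34 (SE 0.69, edgeR adjusted p 0.00442). Nos1 changed by -3.70 (SE 0.25) in clone 75 and by -1.53 (SE 0.29) in clone 65, a difference of -2.17 (SE 0.48, adjusted p 0.00964). Thus 2 of the 7 genes were called, both lower, where 2.54% of all tested features were called in either direction and 2.22% lower. The call for Nos1 rested on replicate 2 of TET2 CLIP of clone 65, with the difference at -1.60 (edgeR adjusted p 0.203) when it was left out. Leaving it out kept the call for Ermap (adjusted p 0.0340), and over all alternatives the adjusted p ran from 7.98e-05 to 0.0340 for Ermap and from 0.000265 to 0.203 for Nos1. Each difference holds the input of both clones. In TET2 CLIP Ermap averaged 9.87 ± 8.32 CPM in clone 75 and 42.5 ± 5.35 CPM in clone 65, and Nos1 32.8 ± 1.34 CPM in clone 75 and 60.7 ± 23.2 CPM in clone 65 (SD, n = 2 each), while both were higher in input of clone 75. The change of Ermap in clone 75 was -6.82, and its difference -4.83, when replicate 1 of TET2 CLIP of clone 75 was left out. With the library that decided the call for Nos1 left out, its change in clone 65 was -2.23.

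The other 5 genes did not pass this test. Gata3 changed by -5.09 in clone 75 and -3.02 in clone 65, a difference of -2.07 (SE 0.81, edgeR adjusted p 0.199). Enam differed by -2.43 (SE 1.66), a value that turned to 3.72 once replicate 1 of TET2 CLIP of clone 65 was left out, the only library of that pair with a count of it. Gm14236 changed by -4.52 in clone 75 and -3.21 in clone 65, a difference of -1.31 (SE 0.58, adjusted p 0.268). In clone 65 its change was -5.25 with replicate 2 of TET2 CLIP left out. The difference depended on single libraries of TET2 CLIP of clone 65, being -1.99 (edgeR adjusted p 0.0138) without replicate 1 and 0.61 (adjusted p 0.749) without replicate 2. Wtap changed by -2.78 in clone 75 and -2.36 in clone 65, and Zfp654 by -3.12 in clone 75 and -3.40 in clone 65 (-4.09 in clone 65 when replicate 1 of its TET2 CLIP was left out). Their differences of -0.42 (SE 0.39) and 0.28 (SE 0.57) were of the size of their errors.

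**Figure D3:**
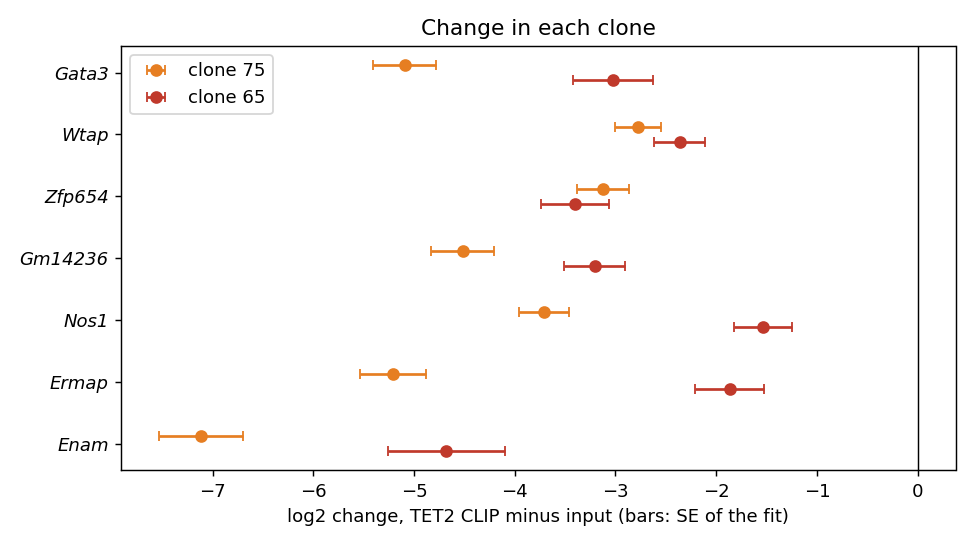
Fitted log2 change of TET2 CLIP against input for the 7 genes in clone 75 and clone 65, with bars for the SE of the fit. For every gene but Wtap the bars are shorter than counting error alone, most of all for Enam, Gata3 and Ermap with few counts. Ermap and Nos1 differed between clone 75 and clone 65 by -3.34 and -2.17 on the log2 scale, whereas the values of Wtap and Zfp654 lie close together.

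The input RNA of the 2 clones was compared next. The choice did not use this contrast, but it used the same input libraries and favoured genes with high counts in them. Gata3, Nos1, Ermap and Enam were all higher in input of clone 75, and Wtap, Zfp654 and Gm14236 did not pass the test. Enam averaged 402 ± 66.4 CPM in clone 75 and 138 ± 1.82 CPM in clone 65 (SD, n = 2 each), a log2 difference of 1.56 (SE 0.13, edgeR adjusted p 1.23e-09). Ermap averaged 422 ± 46.5 CPM in clone 75 and 157 ± 24.6 CPM in clone 65 (log2 1.45, SE 0.13). Gata3 averaged 442 ± 18.9 CPM in clone 75 and 175 ± 36.0 CPM in clone 65 (log2 1.35, SE 0.13), and Nos1 433 ± 7.24 and 178 ± 22.4 CPM (log2 1.28, SE 0.13). Both clone 75 libraries exceeded both clone 65 libraries for each of these 4 genes. Their call in this contrast largely sets that order, and the share of all features with it was not counted. In these bulk samples, fewer cells of a kind and less RNA per cell cannot be told apart.

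The difference in input was 0.08 (SE 0.15) for Wtap, 0.18 (SE 0.14) for Zfp654 and 0.05 (SE 0.16) for Gm14236. The input libraries of the clones overlapped for all 3 genes. In all, 4 of 7 genes were called, all higher, where 6.90% of tested features were called, 517 of 10334 higher and 196 lower. The 7 genes ranked above most of those features in input counts, so these shares are not a like background. The 4 calls were made also under each alternative, with log2 differences of 0.92 (Nos1) to 1.68 (Enam). The 3 features just outside the choice were called higher there too, Mcm3 at 1.03, Gm38077 at 1.39 and Gm26691 at 1.40 (edgeR). Rows known to collect ribosomal RNA reads also stood higher in clone 75. Of 6 tested rows of that list of 7, 4 were higher in input of clone 75 and 0 lower. Not called were n-R5-8s1 at 0.30 and Mir6236 at 0.29. The list summed to 369973 to 463006 CPM in clone 75 and 205831 to 250275 CPM in clone 65. Most of this was 1 row, Gm26917, which averaged 288187 CPM over all inputs. Lars2, whose row is among them, differed by 0.89 (edgeR adjusted p 0.00215) and Gm15564 by 0.95 (adjusted p 7.775e-05). Their part in the difference of the 4 genes was not tested.

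**Figure D4:**
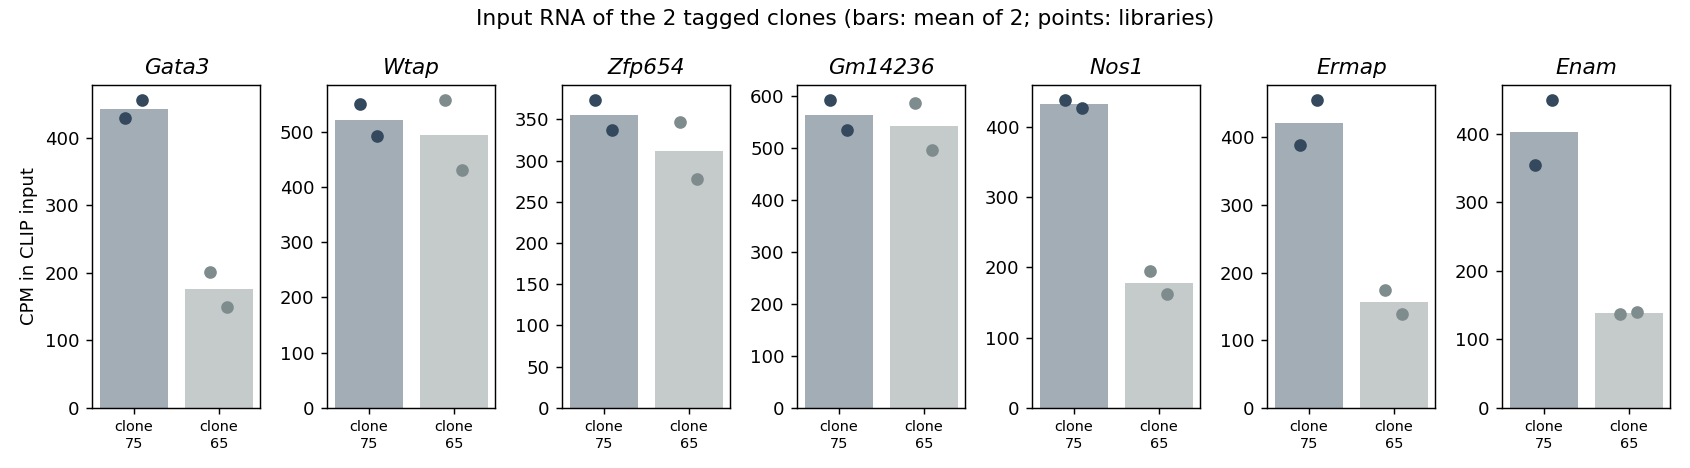
CPM in the input libraries of clone 75 and clone 65 for the 7 genes, with bars for the mean of 2 libraries and points for the libraries. Gata3, Nos1, Ermap and Enam stand at 402 to 442 CPM in clone 75 and 138 to 178 CPM in clone 65, and the other 3 genes overlap between clones.

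The hm5C RIP libraries were not used in the choice and hold the genes at other levels. Only Wtap, Zfp654 and Gm14236 passed the count filter there. Wtap was at 42.6 and 48.1 CPM in hm5C RIP and 72.9 and 70.2 CPM in RIP input, without overlap, a log2 change of -0.65 (SE 0.25) with an adjusted p of 0.0574 by edgeR. Zfp654 was at 15.7 and 17.8 CPM in hm5C RIP and 15.7 and 18.7 CPM in RIP input (log2 -0.03, SE 0.33), and Gm14236 at 17.7 and 13.7 CPM in hm5C RIP and 21.6 and 20.8 CPM in RIP input (log2 -0.45, SE 0.33, adjusted p 0.305). None of the 3 was called by edgeR, where 51.9% of the 2081 tested features were called, and 1 of the 3, Wtap, had an unadjusted p under 0.05. DESeq2 called 0 as well.

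The direction for these 3 genes followed the scaling. Acsl6, a single row, took 55.2% and 60.6% of all counts in hm5C RIP and 0.255% and 0.167% in RIP input. With it left out and TMM kept, Wtap was at -0.81 (edgeR adjusted p 0.0204), but with it left out under scaling by library size Wtap, Zfp654 and Gm14236 were at 0.85, 1.46 and 1.03 and all 3 were called higher. Wtap was also called lower when either hm5C RIP library was left out, a fit in which the lone hm5C RIP library is assumed to vary like the RIP inputs.

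The other 4 genes were close to absent in the RIP table. Gata3 had 1 and 1 counts in hm5C RIP and 2 and 3 in RIP input, Enam 0 and 1 in hm5C RIP and 0 and 0 in RIP input, and Ermap 0 and 0 in hm5C RIP and 0 and 1 in RIP input. Nos1 had 2 and 9 counts in hm5C RIP and 3 and 2 in RIP input, a ratio of 4.93 with an exact 95% counting interval of 1.58 to 18.1 that rests mostly on 1 library. At the depth of RIP input 3 counts equalled 0.638 to 0.727 CPM. In CLIP input the same 4 genes averaged 270 (Enam) to 309 CPM (Gata3), whereas Wtap, Zfp654 and Gm14236 averaged 507, 334 and 552 CPM in CLIP input and 71.6, 17.2 and 21.2 CPM in RIP input. The 2 tables were scaled separately and differ in strain, labelling and library kit, so these levels were not tested against each other. The 4 genes near 0 in RIP input were the 4 that were higher in input of clone 75.

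**Figure D5:**
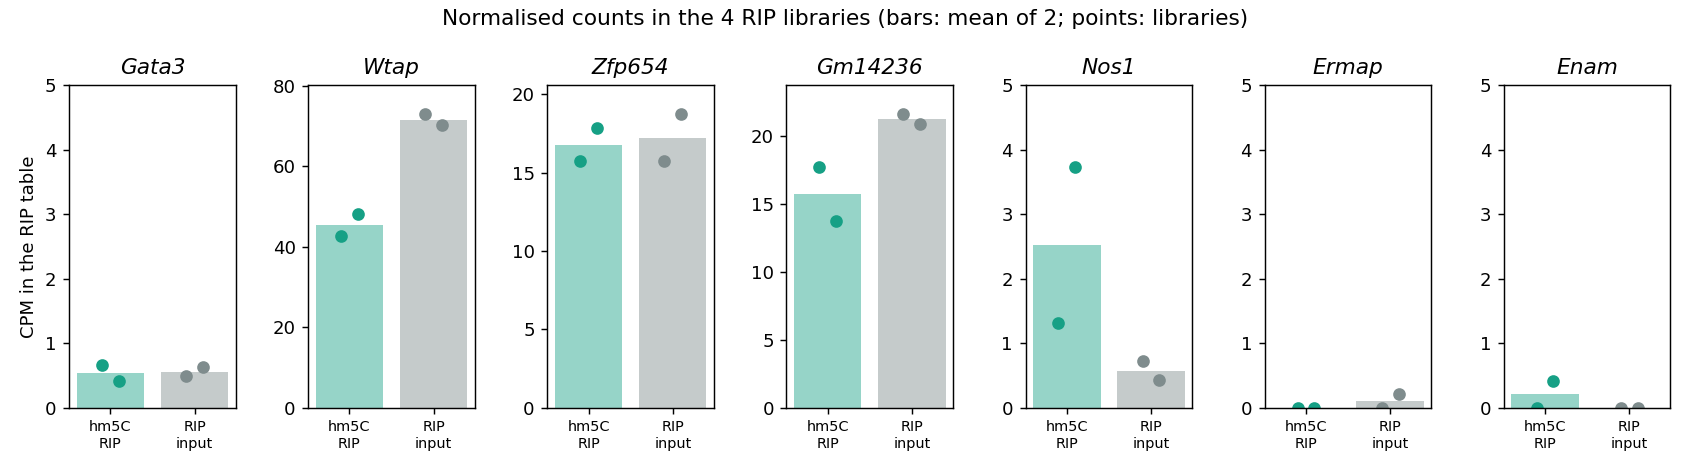
CPM in the hm5C RIP and RIP input libraries for the 7 genes, with bars for the mean of 2 libraries and points for the libraries, each panel on its own axis. Wtap, Zfp654 and Gm14236 were counted in all 4 libraries, and Gata3, Nos1, Ermap and Enam stayed under 4 CPM.

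The labelled cell type showed its markers. Of 10 embryonic stem cell markers all were tested in CLIP, and they summed to 1965 to 2031 CPM in input of clone 75 and 2322 to 2409 CPM in input of clone 65. In that contrast 2 of the 10 were called lower in clone 75 and 0 higher, Tdgf1 at -0.67 (edgeR adjusted p 0.000785) and Dppa5a at -0.61 (adjusted p 0.00963). Their part in the higher input counts of Gata3, Nos1, Ermap and Enam was not tested. Ameloblast, erythroid, trophoblast and neuronal markers, of tissues in which the lineage genes are known to work, summed to less than the stem cell markers. T cell markers were not read. Ameloblast markers, the cells that use Enam, summed to 0 CPM in input of clone 75 and 0 to 0.932 CPM in input of clone 65, with 4 of 6 at 0 counts in all inputs. Erythroid markers summed to 14.5 to 21.5 CPM in input of clone 75 and 23.3 to 24.4 CPM in input of clone 65. Over all inputs Alas2 averaged 12.8 CPM and Klf1 4.92 CPM, while Hbb-bs was at 0. Trophoblast markers summed to 62.0 to 70.8 CPM and 78.7 to 85.1 CPM in inputs of clone 75 and clone 65, most of it Tfap2c and Tead4, while Cdx2 had 4 counts in all inputs. Neuronal markers summed to 33.0 to 38.3 CPM and 37.9 to 41.0 CPM, extraembryonic endoderm markers to 14.3 to 17.1 CPM and 13.4 to 15.6 CPM, and fibroblast markers, nearly all Fn1, to 1393 to 1394 CPM and 1808 to 1924 CPM, in inputs of clone 75 and clone 65 in each case.

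Relatives and partners of the 7 genes were read from lists of pathway and family members. In the m6A writer complex, 7 other genes were tested in CLIP and 1 was lower and 0 higher, Rbm15 at -1.17 (SE 0.21), an adaptor that recruits the complex to RNA, where 5.83% of all tested features were lower and 8.99% higher. Mettl3, the catalytic subunit, was at 0.42 (SE 0.38) and Mettl14, its partner, at 0.30 (SE 0.29), neither of them called. The median of the 8 was -0.21, Wtap included, which was chosen for its fall. Without Wtap the middle value of the 7 others was -0.02 (Zc3h13), against -0.03 over all features. Of 10 m6A readers and erasers 1 was lower and 0 higher, Alkbh5, an m6A demethylase, at -0.79 (SE 0.25), with a median of -0.11, against the same shares of all features. In input of clone 75 against clone 65 none of these 17 genes was called by edgeR, where 6.90% of all tested features were, and 2 of the 17 had an unadjusted p under 0.05.

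Lineage relatives of the other genes hardly reached the filter. Among GATA factors and their cofactors only Zfpm1 was tested beside Gata3, at 0.76 (SE 0.48), and Gata1, Gata2, Gata4, Gata5 and Gata6 held 22, 35, 35, 3 and 12 counts over all 4 inputs against 2741 for Gata3. In nitric oxide signalling, Nosip was at 0.12 (SE 0.35) and Dynll1, a dynein light chain that binds neuronal nitric oxide synthase, was higher at 1.29 (SE 0.15, edgeR). Nos2 and Nos3 held 8 and 22 input counts against 2738 for Nos1. None of the 11 other enamel genes and none of the 8 other butyrophilin genes was tested in CLIP. Btn2a2 held 31 input counts, the most of its family beside the 2566 of Ermap.

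Neighbours of the 6 genes with a position were counted in the same libraries, and 5 of them were tested in CLIP. None of the 5 was called by edgeR in CLIP against input, where 14.8% of all tested features were called. None was called in the input contrast either, where 6.90% were, and 0 had an unadjusted p under 0.05. At those shares 5 genes are too few for a lack of calls to say anything of neighbours. Cggbp1, 64 bases from Zfp654, was at 79.4 CPM in TET2 CLIP and 77.6 CPM in input (log2 0.04, SE 0.19). Sod2, the nearest gene above Wtap, was at 71.1 CPM in TET2 CLIP and 59.7 CPM in input (log2 0.14, SE 0.21). Ambn and Jchain on either side of Enam held 0 and 1 counts over all inputs, and Zfp691 and Svbp beside Ermap held 84 and 44. Fbxo21 and Ksr2 beside Nos1 were at -0.18 (SE 0.33) and 0.11 (SE 0.48). Overlapping the genes were 9230102O04Rik and 4930412O13Rik with Gata3, with 2 input counts each, and Gm26995 with Nos1, with 41. The use of strand in counting is not given in the sources used here, so reads of overlapping genes cannot be told apart.

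The 7 genes moved alike over the 8 libraries. The choice largely sets this likeness, since each gene was chosen as lower in TET2 CLIP than in input. Pearson's r between pairs of standardised log2(CPM + 1) profiles ran from 0.795 (Zfp654 and Ermap) to 0.981 (Gata3 and Nos1), over 8 libraries that share clone and depth. Gata3 stood closest to the mean profile (0.996) and Ermap farthest from it (0.933). Among the tested features most like that mean were Gem (0.993), Gm47535 (0.992), Klrb1 (0.991) and Rragc (0.990). Gem, Gm47535 and Klrb1 had 0 counts in all TET2 CLIP libraries and 539, 307 and 226 counts over the inputs (a count of 0 in a library allows up to 3 counts). Rragc had 10 counts in TET2 CLIP and 241 in input and was at 9.58 and 21.8 CPM.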

How the data were processed

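Counts per gene were deposited by the authors as whole numbers, 1 column per library, in a CLIP table and a RIP table of 53900 rows each. The submitters' processing notes name mm10 as build, and the tools STAR 2.5.3a, UMI-tools, Bowtie2 2.2.6 and cutadapt. Their roles, the counting tool, the annotation and the use of strand are not given in the sources used here. Per the labels' protocols, CLIP libraries followed a custom eCLIP protocol and RIP libraries a TruSeq small RNA kit. Another table, of tRNA fragments, holds none of these genes and was not used.

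The whole tables were tested with edgeR 4.0.16 in R 4.3.3 (TMM, filterByExpr, robust quasi-likelihood fit, Benjamini-Hochberg adjustment over all tested features, threshold 0.05), over 8 CLIP or 4 RIP libraries. SE were computed as the log2 change over the square root of F. For TET2 CLIP against input of the chosen genes other than Wtap, they are smaller than counting error alone. This is strongest for genes with few counts, such as Enam, Gata3 and Ermap. Counting error alone did not account for the spread within groups (chi-square per degree of freedom 1.66 to 14.2). In simulated CLIP counts of 9599 features, 66.3% of the 2-fold changes and 98.9% of the 4-fold changes were found. In simulated RIP counts of 1752 features these shares were 7.32% and 63.4%.

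The genes, the lists and the tests were chosen with earlier results of these data known. Named are the 7 genes, list genes that passed the CLIP test or up to 2 with the smallest p, features among the 5 most alike, the next 3 falls by p, and neighbours, leaving out a few that are not reported here. Further list genes were chosen after their values were seen. Each library was left out in turn, and the other alternatives were a fit with no count filter, scaling by library size alone or by DESeq2 size factors, DESeq2 1.42.0, a replicate block and RIP without Acsl6. Nothing names separate cultures for replicates, so p-values measure the spread between these libraries. Replicate numbers did not pair the samples.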

Additional observations from a re-analysis of the deposited data

Results flagged for a closer look

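The fall in TET2 CLIP differed between the clones for 2 genes by the test of the difference itself, made on the libraries that the choice used. For Ermap the change in clone 75 minus that in clone 65 was -3.34 on the log2 scale, with TET2 CLIP means of 9.87 CPM in clone 75 and 42.5 CPM in clone 65. For Nos1 it was -2.17, with TET2 CLIP means of 32.8 CPM in clone 75 and 60.7 CPM in clone 65. The call for Nos1 rested on replicate 2 of TET2 CLIP of clone 65, with the difference at -1.60 without it. Input of both genes was higher in clone 75, by 1.45 for Ermap and 1.28 for Nos1. Groups of 2 libraries are too small for a search for single libraries far from the rest.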

How the results depend on the processing

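All 7 genes were called lower in TET2 CLIP, in both clones together and in each clone, under every alternative run. Since they were chosen on these libraries, this says nothing of stability. The 4 genes higher in input of clone 75 were called higher there under every alternative run. The number of genes whose clone difference was called was 1 to 3 (2 with all libraries) when single libraries were left out. In hm5C RIP 0 genes were called, but 1 with no count filter, 0 to 1 with single libraries left out, 1 with Acsl6 left out and TMM, and 3 with Acsl6 left out under scaling by library size. That last setting turned Wtap, Zfp654 and Gm14236 to 0.85, 1.46 and 1.03, and library size alone turned Zfp654 to 0.18.

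Library size alone moved the median of all features to -0.34 in the input contrast and to 0.60 in the clone difference (0.01 and 0.02 with TMM). It turned Wtap, Zfp654 and Gm14236 to -0.29, -0.18 and -0.31 in input and the clone difference of Wtap to 0.17. With no count filter Wtap and Gm14236 were at -0.052 and -0.075 in input. None of these values passed the test. With single libraries left out, the input difference was -0.10 to 0.27 for Wtap and -0.065 to 0.18 for Gm14236. The clone difference was then -3.38 to 3.72 for Enam, -0.016 to 0.84 for Zfp654, -1.99 to 0.61 for Gm14236 and -0.66 to 0.011 for Wtap. The cause was not tested.

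Counts of all called features moved more. In TET2 CLIP against input, 1531 features were called in both clones and 2678 with no count filter. In clone 65 there were 1145, with 2010 by library size alone, 1978 with no count filter and 736 to 1597 with single libraries left out. In clone 75 there were 1049, and 482 to 1402 with single libraries left out. For the clone difference there were 263, with 742 by library size alone and 87 to 372 with single libraries left out. In the input contrast there were 713, with 1801 by library size alone, 328 by DESeq2 and 138 to 1075 with single libraries left out. In hm5C RIP there were 1080, with 1774 with Acsl6 left out under scaling by library size and 647 to 1385 with single libraries left out. Library size alone split the input calls as 242 higher and 1559 lower (517 and 196 with TMM) and the calls of the clone difference as 638 higher and 104 lower (34 and 229 with TMM). In TET2 CLIP it gave 808 higher and 922 lower in both clones (929 and 602 with TMM), 684 and 1326 in clone 65 (848 and 297) and 872 and 264 in clone 75 (643 and 406). Where a library was left out, the other library of its group was assumed to vary like the remaining groups.

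With the replicate number as a block, 408 features were called in the input contrast and 824 in clone 75, and the block changed no call of the 7 genes. Deviations of libraries with the same number correlated at -0.0234 to 0.0222 over features, so the numbers were not taken to pair the samples.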
